A study of Mus musculus with 18 samples.

Results

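Atf3, Jun, Cebpd, Sox11, Smad1, Stat3, Klf4, Klf6, Klf7 and Klf9 are 10 transcription factors known from the response of sensory neurons to axon injury. They were chosen by symbol from 17198 genes measured by RNA-seq, all 10 were found, and none was lost to the filter on low values. The libraries came from mouse sensory neurons of the dorsal root ganglia (DRG), which lie beside the spinal cord, grown in culture and labelled DRG_neurons. One genotype was Wild type (WT). The other was Dynlrb1(tm1a/+), heterozygous (HET) for an allele of Dynlrb1, a light chain of the retrograde motor dynein. Cultures were collected at 12, 24 and 48 h, with 3 biological replicates in each of the 6 groups and 18 libraries in all. The labels used here give no age, sex or culture additive, and the tm1a allele is carried in every cell of the animal.

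Cutting an axon, which dissociation of a ganglion also does, sends signals from the wound to the nucleus, some of them carried by dynein. Kinase signalling activates Jun and induces Atf3, bZIP factors that pair with each other and with other AP-1 members, while gp130 cytokines activate Stat3 and induce the bZIP factor Cebpd. BMP receptors activate Smad1, Sox11 is a SoxC factor of developing and regenerating neurons, and the KLF family is divided in its effects: Klf6 and Klf7 are known to promote axon growth and Klf4 and Klf9 to restrain it.

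In the GENCODE annotation of GRCm38 the bZIP genes are Atf3 at chr1:191170296-191218039, Jun at chr4:95049034-95052222 and Cebpd at chr16:15887286-15891031. The other signal effectors and SoxC gene are Smad1 at chr8:79338395-79399518, Stat3 at chr11:100885098-100939540 and Sox11 at chr12:27334264-27342574. The KLF genes are Klf4 at chr4:55527143-55532466, Klf6 at chr13:5861482-5870394, Klf7 at chr1:64029447-64122282 and Klf9 at chr19:23141226-23168134. These spans cover whole genes, exons and introns together.

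The sequence before the start site was examined because binding sites of these same factors are often found there. RefSeq promoters of build GRCm38.p6 were given for 9 of the 10 genes, Cebpd being the other. The 250 bases before the start are printed 5′ to 3′ for the 4 genes in which a CRE-like (TGACNTCA), AP-1 (TGANTCA) or STAT (TTCNNNGAA) match was found on either strand. Capitals mark those matches, and a match describes letters only. Jun lies at chr4:95052223-95052472 on the minus strand, Sox11 at chr12:27342719-27342968 on the minus strand, Klf6 at chr13:5861239-5861488 on the plus strand and Klf9 at chr19:23140976-23141225 on the plus strand.
Jun: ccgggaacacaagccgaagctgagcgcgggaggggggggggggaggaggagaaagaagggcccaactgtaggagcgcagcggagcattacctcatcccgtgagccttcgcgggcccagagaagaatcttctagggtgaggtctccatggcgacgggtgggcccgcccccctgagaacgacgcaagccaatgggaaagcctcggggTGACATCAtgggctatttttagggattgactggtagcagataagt
Sox11: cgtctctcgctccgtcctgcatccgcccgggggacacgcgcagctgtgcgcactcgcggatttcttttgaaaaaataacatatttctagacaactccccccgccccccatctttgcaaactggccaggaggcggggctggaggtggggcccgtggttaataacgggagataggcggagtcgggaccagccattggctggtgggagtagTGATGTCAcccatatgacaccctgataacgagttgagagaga
Klf6: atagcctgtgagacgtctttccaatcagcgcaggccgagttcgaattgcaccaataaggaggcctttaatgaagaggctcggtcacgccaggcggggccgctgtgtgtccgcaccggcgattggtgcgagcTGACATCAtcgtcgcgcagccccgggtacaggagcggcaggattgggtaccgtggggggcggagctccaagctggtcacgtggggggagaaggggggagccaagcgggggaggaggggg
Klf9: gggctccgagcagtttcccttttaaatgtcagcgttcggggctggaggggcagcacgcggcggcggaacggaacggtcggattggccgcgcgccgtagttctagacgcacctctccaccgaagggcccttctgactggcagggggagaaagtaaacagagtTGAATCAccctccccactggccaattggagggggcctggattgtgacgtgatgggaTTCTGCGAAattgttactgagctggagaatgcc
The CRE-like letters were present in 3 of the 9 promoters, starting 45 bases before the start of Jun, 42 before Sox11 and 119 before Klf6, and in 7.49% of 32851 promoters of the same length. The full CRE, TGACGTCA, was in 0 of 9 and in 1.55% of all promoters. Klf9 alone held the AP-1 letters, 89 bases before its start, and the STAT letters, 33 bases before it, which 6.75% and 7.02% of all promoters held. The GC box GGGCGG was in 8 of 9 promoters against 32.7% of all, CCAAT in 6 of 9 against 33.8%, the KLF-type CCNCNCCC, which can overlap the GC box, in 7 of 9 against 45.9%, and TATAAA in 0 of 9 against 12.4%. Base composition differs as well: GC content was 61.2% for Jun, 58% for Sox11, 64.8% for Klf6 and 59.6% for Klf9, against a median of 52.4% over all promoters.

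Dynlrb1, the targeted gene, had 6195, 5786 and 6015 mean normalized counts in WT at 12, 24 and 48 h and 3599, 3204 and 3346 in HET, or 58.1%, 55.4% and 55.6% of WT, with no overlap between genotypes at any time. Defining sensory neuron markers were present, with a summed level of 6808 to 10320 FPKM over 16 genes. Markers of other cells had values too, but no normalized value of any gene was 0, so a value above 0 does not show detection. The lowest were near the floor, with means of 0.207 FPKM for Mag, 0.295 for Kcnj10 and 0.358 for Cx3cr1. Sums ran from 321.2 to 433 FPKM for 8 Schwann cell genes and from 211.8 to 644.7 for 6 satellite glia genes. For the 7 measured of 8 listed macrophage genes the sums ran from 16.61 to 87.82 FPKM, and for 6 endothelial genes from 48.58 to 115.3. In bulk RNA, fewer cells of a type and less RNA per cell cannot be told apart. Columns were scaled by the authors to totals of 41509705 to 41509874, so the depth behind each value is unknown. P-values measure the spread among the 3 cultures of each group, pooled over the 6 groups.

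The third replicate of HET at 48 h stood apart from its group. Over all genes but the 10, a scale was set with the WT 24 h mean at 0 and the WT 48 h mean at 1. On it, HET 48 h replicates 1 and 2 lay at 0.875 and 0.593, while replicate 3 lay at -0.033. The HET 24 h cultures lay between 0.029 and 0.254, and the WT 48 h cultures between 0.763 and 1.132. From the 10 factors alone, HET 48 h replicate 3 lay at 0.102, against 0.971 and 0.641 for the other two. It was the highest of the 3 HET 48 h cultures for 10 of 10 factors. Counts and fold changes of the factors that use HET at 48 h are therefore given with and without this culture. For the lists of relatives, upstream genes and growth and injury genes, counts without a replicate block are given both ways. Why it stood apart was not tested.

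**Figure D1:**
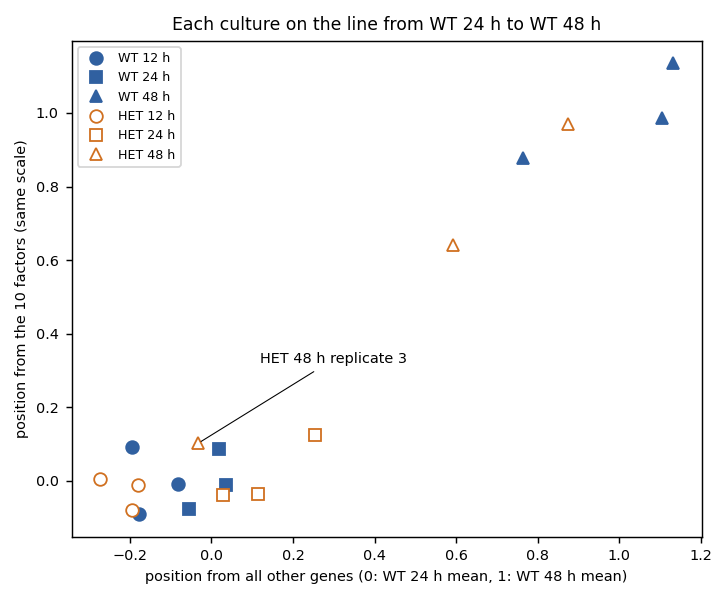
Each of the 18 cultures is placed on the line from the WT 24 h mean (0) to the WT 48 h mean (1), by all other genes on the x axis and by the 10 factors on the y axis, both without units. HET 48 h replicate 3 (-0.033, 0.102) lies among the 12 h and 24 h cultures, and the other 5 cultures of 48 h lie at 0.593 or above on the x axis.

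Atf3 was the most abundant of the 10 factors in every group. Levels between genes are given as FPKM, which are scaled to transcript length. In WT at 12 h the means ± SD (n = 3) were 340 ± 34.7 for Atf3, 161 ± 13.4 for Jun, 150 ± 12.2 for Stat3, 98.8 ± 8.75 for Klf6 and 92.1 ± 22.5 for Klf7. Next came Smad1 at 63.2 ± 2.14, Klf9 at 59.0 ± 1.5, Sox11 at 39.9 ± 10.7, Cebpd at 19.3 ± 3.71 and Klf4 at 11.02 ± 2.17. The neighbours Jun and Stat3 overlapped over cultures, as did Klf6 and Klf7. Other neighbours in that order did not overlap.

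At 48 h in WT the order had moved in several places. Atf3 stood at 245 ± 39.5 FPKM, still in the 99.1 percentile of all genes. Stat3 at 123 ± 12.7 was now above Jun at 105 ± 6.95, and Klf7 at 68.8 ± 3.52 overlapped Klf6 at 60.3 ± 4.79. Klf4 at 6.09 ± 0.444 and Cebpd at 4.39 ± 0.136 formed the low end without overlapping each other, Cebpd at the 44.5 percentile against 76.5 at 12 h. In HET at 48 h Cebpd stood at 8.94 ± 2.82 and Klf4 at 7.67 ± 1.43, and these overlapped.

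**Figure D2:**
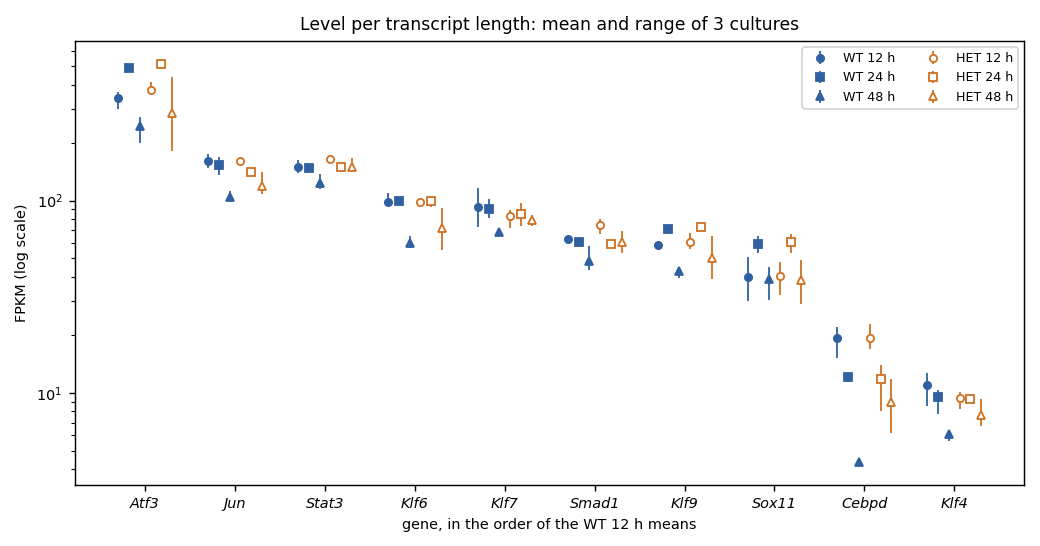
FPKM (y axis, log scale) of each factor (x axis, ordered by the WT 12 h mean) in the 6 groups; points are means of 3 cultures and bars run from the lowest to the highest culture. Atf3 is at the top in each group, and Cebpd in WT goes from 19.3 at 12 h to 4.39 at 48 h.

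Between 12 and 24 h in WT, 0 of the 10 factors passed the test (limma on log2(normalized count + 1), Benjamini-Hochberg adjusted p under 0.05), where 3.62% of all genes did. At an unadjusted p under 0.05 the count was 3, against 3688 of all 17198 genes. The authors' deposited table, made with edgeR, has 1 factor at a false discovery rate (FDR) under 0.05, Cebpd (FDR 0.0363), against 4.97% of all genes. The groups did not overlap for 3 factors that were higher at 24 h, Atf3, Sox11 and Klf9 (18% of all genes), and for 1 that was lower, Cebpd (8.94%).

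Atf3 had 28810, 30159 and 24692 normalized counts in the WT cultures at 12 h and 41625, 39686 and 39603 at 24 h. All 3 cultures at 24 h were above all 3 at 12 h (log2 fold change 0.54, SE 0.21, limma adjusted p = 0.150). Sox11 spread more widely, with 10497, 13532 and 17949 at 12 h and 18821, 22840 and 21182 at 24 h (0.61, SE 0.21, limma adjusted p = 0.0997). Klf9 went from 7912, 7839 and 8220 to 9585, 10136 and 9211, a tight set at each time (0.27, SE 0.13, limma adjusted p = 0.240). Cebpd had 2061, 1964 and 1416 at 12 h and 1144, 1194 and 1065 at 24 h, each culture at 24 h being lower (-0.66, SE 0.22, limma adjusted p = 0.0941). The other 6 factors lay between -0.21 (Klf4) and 0.02 (Klf6). Without HET 48 h replicate 3, which enters here through the pooled spread, Atf3 passed (limma adjusted p = 0.0214) and was the 1 factor called, against 6.51% of all genes.

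In HET between 12 and 24 h, 2 factors passed, against 18.9% of all genes: Sox11 rose and Cebpd fell. The authors' deposited table has the same 2 at FDR under 0.05, against 18.3% of all genes. Sox11 had 14434, 11268 and 16868 normalized counts at 12 h and 23613, 18819 and 22041 at 24 h, with no overlap (0.61, SE 0.21, limma adjusted p = 0.0494). Cebpd had 1581, 2128 and 1715 at 12 h and 759, 1302 and 1262 at 24 h, also without overlap (-0.74, SE 0.22, limma adjusted p = 0.0275). Atf3 had 33865, 29141 and 30112 at 12 h and 41961, 41440 and 43724 at 24 h, every later culture being higher (0.45, SE 0.21, limma adjusted p = 0.144). Smad1, the BMP effector, missed the threshold with -0.32 (SE 0.11, limma adjusted p = 0.0518), and passed without WT 48 h replicate 3 (0.0252), HET 12 h replicate 1 (0.0386) or HET 48 h replicate 1 (0.0432). The call for Sox11 was lost in 11 of 18 fits that each left out 1 culture, with the largest adjusted p, 0.230, without HET 12 h replicate 2. The call for Cebpd was lost without HET 12 h replicate 2 (0.138) or HET 24 h replicate 1 (0.141). Without HET 48 h replicate 3, 5 factors passed, Atf3, Sox11 and Klf9 higher and Smad1 and Cebpd lower, against 23.1% of all genes.

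**Figure D3:**
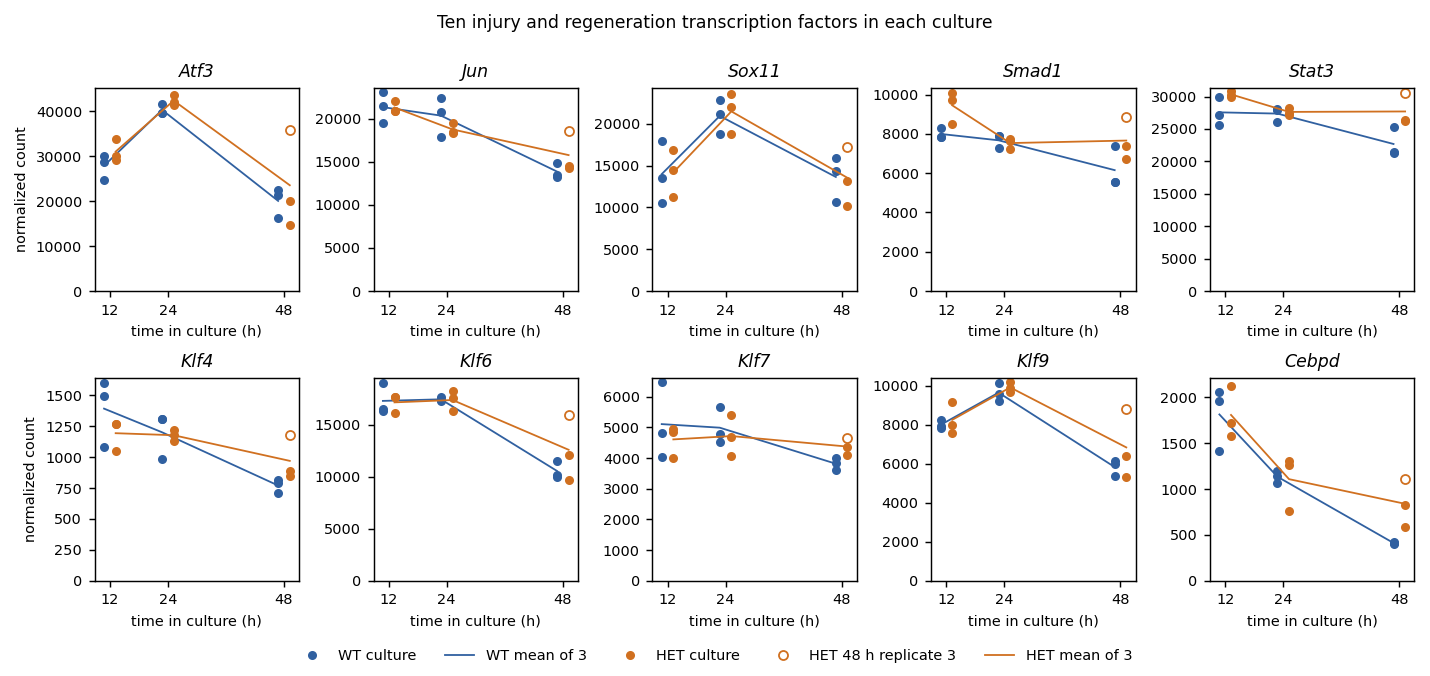
Normalized counts (y axis, from 0) against time in culture in h (x axis) for each factor; points are cultures, lines join the means of 3, and the open circle is HET 48 h replicate 3. Atf3, Sox11 and Klf9 have their highest group mean at 24 h in both genotypes, as does Klf6 by a small margin. The WT cultures of Cebpd reach 398 to 423 at 48 h.

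Between 24 and 48 h in WT, 9 of the 10 factors fell, where 27.7% of all genes changed and 10.3% fell. The exception was Klf7 (-0.38, SE 0.15, limma adjusted p = 0.0602), a growth-promoting KLF, which passed without WT 12 h replicate 1 (0.0383) or 5 (0.025). The median log2 fold change of the 10 was -0.63, against 0.05 over all genes. Atf3 was at 16367, 22418 and 21398 normalized counts at 48 h, or 49.8% of its 24 h mean (-1.02, SE 0.21, limma adjusted p = 0.00425). Cebpd was at 398, 414 and 423, or 36.3% (-1.46, SE 0.22, limma adjusted p = 0.00343). For both, the later cultures lay well below the earlier ones.

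Jun, the AP-1 partner of Atf3, had 20757, 22360 and 17924 normalized counts at 24 h and 13183, 13493 and 14908 at 48 h (-0.55, SE 0.10, limma adjusted p = 0.00343). Klf6 had 17686, 17288 and 17377 at 24 h and 9948, 10216 and 11515 at 48 h (-0.73, SE 0.13, limma adjusted p = 0.00343). The groups did not overlap for Jun and Klf6, nor for the growth-restraining Klf9 and Klf4. This held for 9 of the 10 factors, Smad1 being the exception. The share of all genes without overlap is not given for this comparison. Klf9, which restrains growth, had the same fold change as Klf6, going from 9585, 10136 and 9211 to 5357, 6137 and 5993 (-0.73, SE 0.13, limma adjusted p = 0.00343). Klf4 went from 1310, 1308 and 984 to 811, 706 and 793 (-0.63, SE 0.16, limma adjusted p = 0.00923). Both the growth-promoting Klf6 and the growth-restraining Klf4 and Klf9 fell.

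Sox11 fell by 0.63 (SE 0.21, limma adjusted p = 0.0330), from 18821, 22840 and 21182 normalized counts to 10714, 14370 and 15866. Smad1 had 7875, 7260 and 7883 at 24 h and 5567, 5535 and 7364 at 48 h (-0.33, SE 0.11, limma adjusted p = 0.0376), and here the groups overlapped through the third culture. Stat3 had 26053, 27941 and 28137 at 24 h and 21392, 21296 and 25380 at 48 h (-0.28, SE 0.09, limma adjusted p = 0.0273). Leaving out 1 culture ended some of these calls: Sox11 lost its call in 4 of 18 fits without 1 culture (highest limma adjusted p = 0.147, without WT 48 h replicate 1), Smad1 in 5 (0.158, without WT 48 h replicate 2) and Stat3 in 4 (0.117, without WT 48 h replicate 2). The other 6 calls held in all 18 fits.

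Over the whole span from 12 to 48 h in WT, 8 factors fell by limma (47.1% of all genes changed and 17.1% fell), and Atf3 and Sox11 did not pass. The authors' deposited table has 9 lower at FDR under 0.05, with Atf3 (FDR 0.0469) but not Sox11, where 45.4% of all genes changed. Cebpd had the largest fall, to 22.7% of its 12 h mean (-2.12, SE 0.22, limma adjusted p = 2.23e-05). Klf4 was at 55.3% (-0.84, SE 0.16), Klf6 at 61.1% (-0.71, SE 0.13), Jun at 65.0% (-0.62, SE 0.10) and Klf9 at 73.0% (-0.46, SE 0.13). Their limma adjusted p-values were 0.000499, 0.000351, 0.000215 and 0.00857, and these 5 calls held in all 18 fits without 1 culture. Smad1 was at 77.0% (limma adjusted p = 0.00902), Stat3 at 82.3% (0.0135) and Klf7 at 74.7% (0.0351). Without WT 48 h replicate 2 none of these 3 passed (0.0538, 0.0676 and 0.110), which left 5. Stat3 and Klf7 also missed without WT 12 h replicate 5 (0.0653 and 0.219) or WT 48 h replicate 1 (0.0587 and 0.0699), and Klf7 without WT 12 h replicate 2 (0.0549).

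The 2 factors that did not pass by limma had their highest mean at 24 h, as did Klf6 and Klf9, which passed. Atf3 ended at 71.9% of its 12 h mean with no overlap (-0.48, SE 0.21, limma adjusted p = 0.0685), and passed without HET 48 h replicate 1 (0.0226) or 3 (0.00396). Sox11 ended at 97.5%, with 10714 to 15866 normalized counts at 48 h inside the 12 h range of 10497 to 17949 (-0.02, 95% interval -0.46 to 0.42). The median of the 10 was -0.47, against 0.11 over all genes. With the authors' other per-sample columns, whose scaling puts the all-gene median at 0.01, the median of the 10 was -0.58, and 10 of 10 were below 0.

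In WT at 48 h the summed level of 7 fibroblast markers was 114.5 to 164.9 FPKM, against 43.26 to 92.86 at 12 h, and 5 of the 7 rose. The 6 markers of dividing cells went from a sum of 25.86 to 31.27 FPKM to one of 44.47 to 55.01, and 6 of 6 rose. Of 16 sensory neuron markers 2 rose and 9 fell, while their sum was 7383 to 8963 FPKM at 12 h and 6816 to 7557 at 48 h. Satellite glia markers summed to 442.1 to 604.8 FPKM at 12 h and 223.2 to 242.9 at 48 h, with 1 of 6 higher and 2 lower. Macrophage markers went from 19.62 to 27.06 FPKM to 45.99 to 87.82, with 2 of 7 higher and 1 lower. Endothelial markers went from 83.33 to 114.3 FPKM to 48.58 to 67.02, with 0 of 6 higher and 3 lower. Schwann cell markers went from 364.3 to 399.6 FPKM to 321.2 to 371, with 1 of 8 higher and 2 lower. In HET the fibroblast sum was 50.62 to 76.78 at 12 h and 90.98 to 163.5 at 48 h, with 4 of 7 higher, and 5 of 6 markers of dividing cells rose. These HET counts include HET 48 h replicate 3, which had the lowest sum of its group for both (90.98 and 32.36 FPKM). Over all genes 30% rose and 17.1% fell in WT, and 10.6% rose and 3.62% fell in HET. The part of these cell markers in the changes of the 10 factors was not tested.

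In HET, 3 factors fell between 24 and 48 h, against 2.49% of all genes that changed and 1.08% that fell. They were Atf3 (-0.95, SE 0.21, limma adjusted p = 0.0321), Klf9 (-0.57, SE 0.13, 0.0346) and Klf6 (-0.49, SE 0.13, 0.0496). Atf3 had 14786 and 19960 normalized counts in HET 48 h replicates 1 and 2 and 35909 in replicate 3, against 41961, 41440 and 43724 at 24 h. Klf9 had 5309, 6374 and 8826 at 48 h and Klf6 had 9725, 12133 and 15927. In each the third culture was the one nearest the 24 h values of 9659 to 10167 for Klf9 and 16304 to 18225 for Klf6. Without it 5 factors fell, Atf3, Jun, Sox11, Klf6 and Klf9, against 6.59% of all genes, and Atf3 was at -1.30.

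These HET calls depended on single cultures and on the shared spread. The count was 0 without any 1 of HET 24 h replicates 1, 2 and 5 or HET 48 h replicates 1 and 2, and 1 without WT 24 h replicate 1. Over all genes the count went from 429 to 0, 148 and 23 without HET 24 h replicates 1, 2 and 5. It was 0 without either HET 48 h culture and 220 without WT 24 h replicate 1. The call for Klf6 held in only 1 of 18 fits that each left out 1 culture, that without HET 48 h replicate 3, against 12 for Klf9 and 13 for Atf3. Fitted to the HET 24 h and 48 h cultures alone, it was 0 of 10, with 0 calls among all genes. Smad1 and Stat3, the effectors of BMP and gp130 signals, had log2 fold changes of 0.02 (95% interval -0.22 to 0.25) and 0.00 (-0.18 to 0.18) in HET, and -0.09 and -0.07 without replicate 3.

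From 12 to 48 h in HET, 3 factors fell (14.2% of all genes changed and 3.62% fell). The same 3 are lower at FDR under 0.05 in the authors' deposited table, where 15.5% of all genes changed. Cebpd had 583, 823 and 1111 normalized counts at 48 h, or 46.4% of its 12 h mean (-1.14, SE 0.22, limma adjusted p = 0.0121). Jun had 22064, 20901 and 20896 at 12 h and 14510, 14264 and 18534 at 48 h (-0.44, SE 0.10, limma adjusted p = 0.0171), and Klf6 was at 73.4% (-0.47, SE 0.13, 0.0256). In these 3 called genes the groups did not overlap, and the share of all genes without overlap is not given for this comparison. Without HET 48 h replicate 3, 7 fell, with Atf3, Smad1, Klf4 and Klf9 added, against 8.61% of all genes, and Cebpd was at -1.37, Jun at -0.56 and Klf6 at -0.66. Smad1 also passed without WT 48 h replicate 3 (limma adjusted p = 0.0403), and Klf6 missed without HET 12 h replicate 1 (0.0676) or 5 (0.0573). Without HET 12 h replicate 2, HET 48 h replicate 1 or HET 48 h replicate 2 the count was 0, and it was 0 when fitted to these 2 groups alone. In each of these fits the count over all genes was 0 too, against 2442 in the main fit.

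**Figure D4:**
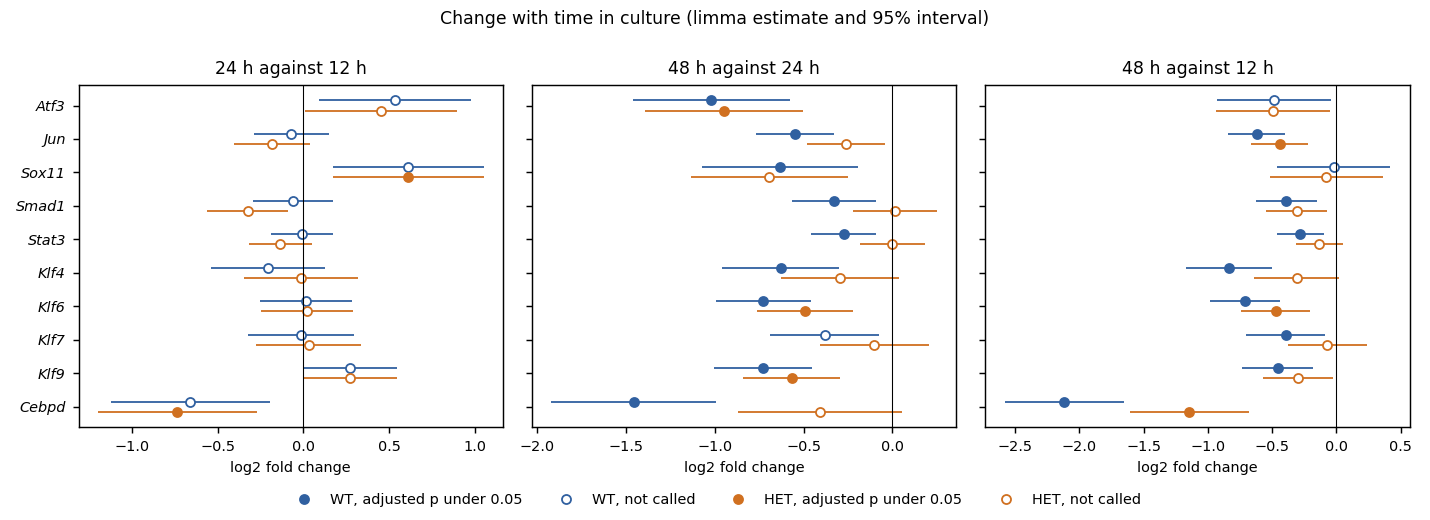
Log2 fold change (x axis) of each factor (y axis) for 24 h against 12 h, 48 h against 24 h and 48 h against 12 h, in WT and HET; points are limma estimates, bars 95% intervals, and filled points have an adjusted p under 0.05. In the middle panel 9 WT and 3 HET points are filled, all below 0.

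The difference in time course between genotypes was tested directly. For 24 against 12 h and for 48 against 12 h, 0 of 10 factors and 0% of all genes passed (limma). At an unadjusted p under 0.05 there were 0 and 2 factors, against 370 and 1534 of all 17198 genes. For 48 against 12 h, Cebpd differed by 0.97 (95% interval 0.32 to 1.63, limma adjusted p = 0.548) and Klf4 by 0.53 (0.06 to 0.99, 0.548), HET being less negative in both. Leaving out HET 48 h replicate 3 gave 0.74 for Cebpd and 0.38 for Klf4 (limma adjusted p = 0.772 for both). For 48 against 24 h, a contrast added after seeing the data, 0 of 10 factors and 0% of all genes passed, with 3 factors at an unadjusted p under 0.05: Cebpd (1.05, 95% interval 0.39 to 1.70, limma adjusted p = 0.180), Smad1 (0.35, 0.296) and Stat3 (0.28, 0.288). Leaving that culture out, only Cebpd was under 0.05 unadjusted (0.82, limma adjusted p = 0.378). The number of all genes under 0.05 unadjusted is not given for this contrast. The higher counts of falling factors in WT, 8 against 3 and 9 against 3, are thus not shown to be differences between genotypes.

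At 12 h, 0 of the 10 factors passed between genotypes by limma, against 0.00581% of all genes. Of the 10, only Smad1 had an unadjusted p under 0.05, as did 1447 of all 17198 genes. The authors' deposited table has 0 factors at FDR under 0.05, against 0.0233% of all genes. Smad1 had 7836, 7847 and 8310 normalized counts in WT and 8518, 10104 and 9745 in HET, without overlap, as 7.07% of all genes were higher without overlap (0.24, SE 0.11, limma adjusted p = 0.591). At 24 h 0 of 10 passed, against 0.00581% of all genes by limma and 0.0116% in the authors' deposited table, which has 0 of the 10. At an unadjusted p under 0.05 there were 0 of the 10 and 198 of all 17198 genes. The log2 fold changes at 24 h ran from -0.11 (Jun) to 0.07 (Atf3). Intervals allow differences of up to 0.52 for Atf3 and 0.20 for Stat3 at that time.

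At 48 h, 0 of 10 factors passed by limma and 0% of all genes. At an unadjusted p under 0.05 there were 3 factors (Cebpd, Stat3 and Smad1), against 3782 of all 17198 genes. The authors' deposited table has 1 factor at FDR under 0.05, Cebpd (log2 fold change 1.03, FDR 0.000576), against 5.98% of all genes. Cebpd had 398, 414 and 423 normalized counts in WT and 583, 823 and 1111 in HET, a mean of 412 ± 12.7 against 839 ± 264 (SD, n = 3 each). Each HET culture was above each WT culture, and the spread lay in HET. The HET mean was 204% of WT (log2 fold change 0.98, SE 0.22, limma adjusted p = 0.0503), and 171% without HET 48 h replicate 3 (0.75, limma adjusted p = 0.251). Cebpd passed without WT 48 h replicate 3 (0.0366), HET 12 h replicate 2 (0.0486), HET 24 h replicate 1 (0.0459) or HET 48 h replicate 1 (0.0377).

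Stat3, which gp130 cytokines activate, had 21392, 21296 and 25380 normalized counts in WT at 48 h and 26214, 26337 and 30564 in HET (0.29, SE 0.09, limma adjusted p = 0.0794). The HET cultures were all above the WT cultures, and the third was the highest in both genotypes. Smad1 had 5567, 5535 and 7364 in WT and 6744, 7402 and 8837 in HET, with overlap (0.32, SE 0.11, limma adjusted p = 0.113). Without HET 48 h replicate 3 the values were 0.22 for Stat3 and 0.21 for Smad1 (limma adjusted p = 0.356 and 0.490). Both passed without WT 48 h replicate 3 (0.37, 0.0317 and 0.46, 0.0289), a fit that called 5.41% of all genes.

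Same-numbered cultures of the genotypes deviated together at 48 h, so the fit with replicate number as a block is given beside the unblocked one. In it 3 factors were higher in HET, Cebpd (0.98, limma adjusted p = 0.00668), Stat3 (0.29, 0.0174) and Smad1 (0.32, 0.0175), where 12.3% of all genes were called and 5.04% were higher. With the block but without HET 48 h replicate 3, 0 of 10 passed, against 3.86% of all genes, Cebpd being at 0.77 (limma adjusted p = 0.0636). In that fit WT 48 h replicate 3 has no partner in its block and adds nothing to the difference either.

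Levels of cell type markers at 48 h stand beside these values, and 0 of them passed between genotypes without the block. The 6 markers of dividing cells summed to 44.47 to 55.01 FPKM in WT and 32.36 to 46.17 in HET, with a median log2 fold change of -0.99 (-0.43 without HET 48 h replicate 3), and 4 of 6 were lower with the block. The 16 sensory neuron markers summed to 6816 to 7557 FPKM in WT and 7652 to 8389 in HET, with a median of 0.26 (0.16 without that culture), and with the block 5 were higher and 1 lower. The 7 fibroblast markers had a median of -0.36 (-0.30 without it), and 2 were lower with the block. Macrophage markers summed to 45.99 to 87.82 FPKM in WT and 27.44 to 43.08 in HET, and 1 of 7 was lower with the block. The marker counts with the block include HET 48 h replicate 3 and are not given without it. The part of these markers in the differences of the factors was not tested.

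Groups did not overlap at 48 h for 4 factors, Cebpd, Stat3, Klf4 and Klf7, all higher in HET, as for 9.57% of all genes. Leaving out HET 48 h replicate 3 could not change this set, because it was the highest HET 48 h culture for all 10 factors. Without it 13.3% of all genes were higher without overlap. Klf4 had 811, 706 and 793 normalized counts in WT and 844, 887 and 1177 in HET, and its lowest HET culture lay just above the highest WT one (0.32, SE 0.16, limma adjusted p = 0.244). Klf7 had 3830, 3613 and 4002 in WT and 4350, 4111 and 4663 in HET (0.20, SE 0.15, limma adjusted p = 0.451).

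For the remaining factors the estimate at 48 h moved with HET replicate 3. Atf3 was at 0.14 with it and -0.21 without it, and Sox11 at -0.02 and -0.22. Jun went from 0.18 to 0.06, Klf6 from 0.23 to 0.04 and Klf9 from 0.20 to 0.00. Averaged over the 3 times, 0 of 10 passed by limma (0.0174% of all genes). At an unadjusted p under 0.05 were 2315 of all 17198 genes and 3 factors: Stat3 (0.15, limma adjusted p = 0.310), Smad1 (0.18, 0.313) and Cebpd (0.30, 0.327). These averages without HET 48 h replicate 3 were 0.12, 0.14 and 0.23.

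**Figure D5:**
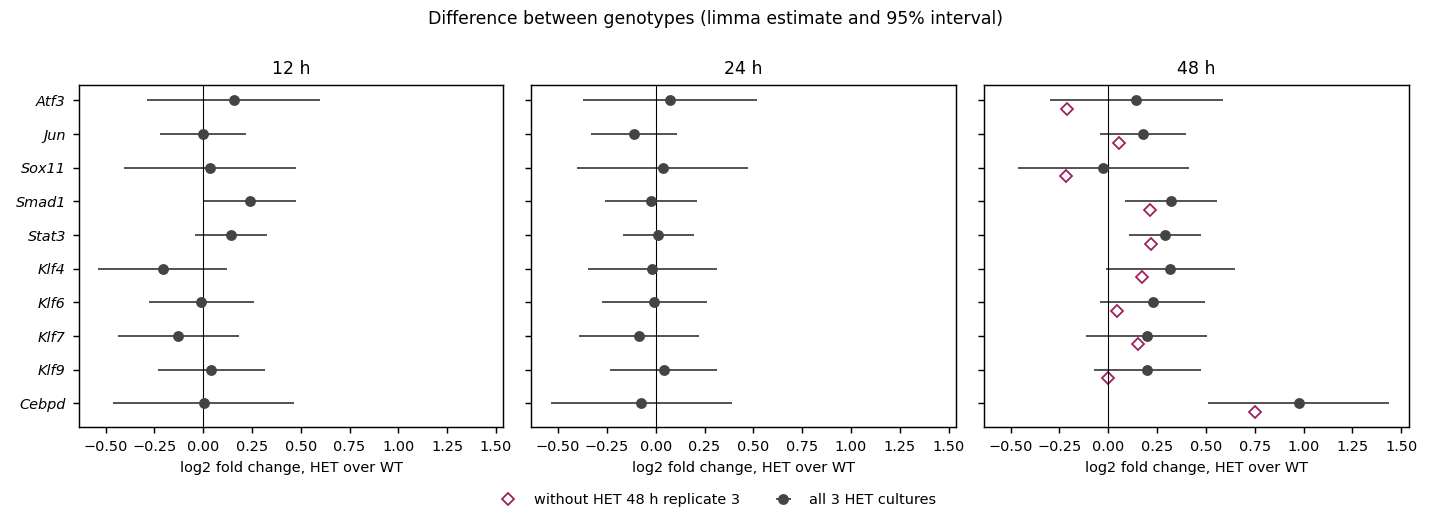
Log2 fold change of HET over WT (x axis) for each factor (y axis) at 12, 24 and 48 h; filled points with bars are limma estimates with 95% intervals from all 3 cultures a group, and open diamonds at 48 h leave out HET replicate 3. Cebpd at 48 h (0.98, or 0.75 without that culture) lies farthest from 0.

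Relatives and upstream genes were followed with 7 lists, none holding the 10 factors, and the comparison of 48 against 12 h. Over all genes 30% rose and 17.1% fell in WT, and 10.6% rose and 3.62% fell in HET. Fold changes in HET are from all 3 cultures. Of 20 AP-1, ATF/CREB and C/EBP factors, 3 rose and 10 fell in WT, and 2 rose and 5 fell in HET. The partners of Jun fell furthest: Fosb was at -3.54 in WT and -2.06 in HET, Fos at -3.06 and -1.78, and Fosl1 at -1.53 and -0.88. Atf5, a stress-induced ATF, rose by 1.04 in WT and 0.72 in HET. The median of this list was -0.34 in WT and -0.12 in HET. Of 13 KLF and SP relatives, 1 rose (Klf10, 0.89) and 6 fell in WT, among them Klf15 (-1.74), Klf5 (-0.99) and Klf2 (-0.95), and 1 fell in HET (Klf15, -1.16).

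Of 13 SoxC, STAT and SMAD relatives, 4 rose and 3 fell in WT and 2 rose in HET. The SoxC gene Sox12 rose in WT (1.09) and HET (0.90), as did Stat5a (1.32 and 0.76), while Smad3, Smad4 and Smad5 fell in WT (-0.65, -0.44 and -0.39). Of 13 genes of the gp130 pathway, 2 rose and 5 fell in WT, and 2 rose and 2 fell in HET. The cytokine Lif rose (0.85 in WT, 0.88 in HET) and the cytokine Il6 fell (-2.11 and -1.88). Of 12 BMP pathway genes, 6 rose and 1 fell in WT, and 3 rose in HET. The members that moved included the BMP antagonist Nog (3.66 in WT, 2.66 in HET) and the BMP target Id1 (1.37 and 1.002), and the receptor Bmpr2 fell in WT (-0.43).

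Of 11 genes of the DLK-JNK pathway, which activates Jun, 1 rose and 4 fell in WT and 1 fell in HET. The neuronal JNK gene Mapk10 fell in WT (-0.79) and HET (-0.39), and the JNK kinase Map2k4 in WT (-0.43). Of 19 growth and injury response genes, 12 rose and 1 fell in WT and 7 rose in HET, with a median of 0.73 and 0.36. The neuropeptide Npy was at 22.2 mean normalized counts in WT at 12 h and 866 at 48 h (5.31), and at 12.1 and 138 in HET (3.24). Sprr1a, a growth-associated gene of injured neurons, rose by 4.52 in WT and 2.19 in HET, and the adhesion gene Flrt3 fell in WT (-0.75).

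Without HET 48 h replicate 3, 19.8% of all genes rose and 8.61% fell in HET from 12 to 48 h, and the counts of 6 of the 7 lists moved. They were 2 higher and 8 lower of 20 AP-1, ATF/CREB and C/EBP factors, 1 and 1 of 13 KLF and SP relatives, and 4 and 1 of 13 SoxC, STAT and SMAD relatives. In the gp130 pathway they stayed at 2 and 2 of 13. They were 6 and 0 of 12 in the BMP pathway, and in the DLK-JNK pathway 0 and 4 of 11 and among growth and injury genes 9 and 2 of 19. Between genotypes, 0 genes of any of the 7 lists passed at 12, 24 or 48 h. With the replicate block at 48 h, 6 AP-1, ATF/CREB and C/EBP factors were higher in HET and 1 lower, while 9 of 19 growth and injury genes were lower and 0 higher, where 5.04% of all genes were higher and 7.29% lower. These blocked counts include HET 48 h replicate 3 and are not given without it. The share of all genes called with the block was 12.3% with that culture and 3.86% without it. The median log2 fold change of HET over WT at 48 h was 0.21 for the 10 factors, 0.24 for the AP-1, ATF/CREB and C/EBP list, -0.38 for the growth and injury list and -0.03 over all genes. With HET 48 h replicate 3 left out, the 10 factors were at 0.10, the AP-1, ATF/CREB and C/EBP list at 0.11 and the growth and injury list at -0.34, and 0 genes of the 7 lists passed without the block.

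Across the 18 cultures some genes closely tracked a factor, by Pearson's r of log2 values among 12467 other genes with a mean of at least 100 normalized counts. These r describe cultures that share times, genotypes and scaling, and carry no test. Atf3 was closest to Car6 (0.99), Rcc1 (0.99) and Gadd45a (0.98), Klf9 to Fnip2 (0.98) and Trp53inp1 (0.98), and Klf6 to Fnip1 (0.98). Cebpd was closest to Fos (0.98), Sfrp5 (0.97) and Fosb (0.97). Jun and Klf4 were both closest to Zfp36, at 0.97 and 0.96. The lowest best match was that of Sox11, with Lyst at 0.94. Among the 45 pairs of the 10 themselves, r ran from 0.09 (Sox11 and Cebpd) to 0.95 (Atf3 and Klf9), with a median of 0.63.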

How the data were processed

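RNA-seq values of 18 cultures (6 groups of 3) came from 1 deposited table. The authors deposited normalized counts, a signal scaled to nearly equal totals, plain adjusted columns (signal), FPKM values, log2 fold changes, p-values with FDR, and a rank score that was not used, per the file headers. The submitters' processing notes name CASAVA 1.8.2, edgeR and mm10 without their roles. The aligner and the counting are not given in the sources used here. The log values span 15 of 17 possible dimensions, so 2 directions had been removed by a step that is not stated. The number of per-sample columns without a sample was 0.

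Normalized counts are not counts, so limma 3.58.1 (R 4.3.3) was fitted to log2(normalized count + 1) of all 17198 genes with a mean of at least 1, with 1 coefficient per group, a mean-variance trend, two-sided tests and Benjamini-Hochberg adjustment over all genes (threshold 0.05, 12 residual and 5 prior degrees of freedom). The fit was run on simulated data with independent noise, which cannot test the effect of the 2 removed directions. Fold changes of low genes are understated by the pseudocount of 1. The depth is unknown, so its precision is not given.

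Replicate numbers come from the titles (1, 2 and 5 at 12 and 24 h, 1, 2 and 3 at 48 h). Deviations from group means of same-numbered WT and HET cultures correlated at 0.209 to 0.461 at 48 h, above 0.1 in all 3 pairs. The 10 factors and the lists were chosen with earlier results of these data known. All 10 are named, with up to 3 higher and 3 lower genes of each list past the threshold by size, and the 3 genes most like each factor, of which the closest are given. The motifs were chosen afterwards. Alternatives were a replicate block, quantile normalization, the plain adjusted columns, fits to the compared groups only, pseudocount 0.1, other filters and leaving out each culture. The 2 removed directions as covariates, the block without HET 48 h replicate 3 and the genotype contrast of 48 against 24 h were added after seeing the data.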

Additional observations from a re-analysis of the deposited data

How the results depend on the processing

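Of 3230 alternative values, 3067 kept direction and side of the threshold, 88 lost the threshold, 75 gained it, and 0 called values changed sign. No filter, a minimum mean of 5 and a pseudocount of 0.1 changed no call among the 10 factors. Of 25 calls among the 10 factors, 11 held without each of the 18 cultures in turn (6 for 48 against 24 h and 5 for 48 against 12 h in WT, 0 in HET).

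With the replicate block the number of factors called was 3 for HET against WT at 48 h, against 12.3% of all genes. It was 1 for the average over times, Smad1 (0.18, limma adjusted p = 0.0478), against 3.22% of all genes. For 24 against 12 h it was 3 in WT (9.43% of all genes) and 5 in HET (26.2%). In HET it was 7 for both 48 against 12 h (30.8%) and 48 against 24 h (16.8%). The block changed no other call count beyond 1.5 times. Outside the genotype comparison at 48 h the numbers did not pair the cultures (lowest correlation -0.207), and between 48 h and earlier times only replicates 1 and 2 share numbers. In comparisons of times, replicate 3 of each genotype occurs only at 48 h, so the block gave each its own coefficient. Those fits therefore made no use of HET 48 h replicate 3. For times, the block without that culture is nearly the same fit and not a separate check. Its counts were 3 and 5 for 24 against 12 h in WT and HET. In HET they were 7 and 7 for 48 against 12 h and against 24 h. Quantile normalization gave 1 for HET against WT at 48 h. Fits to the compared groups only gave 2 in WT and 4 in HET for 24 against 12 h and 0 in HET for 48 against 12 h and against 24 h. The removed directions as covariates gave 3 and 4 for 24 against 12 h in WT and HET. Why the other counts moved was not tested.

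Leaving out 1 culture gave 0 to 3 factors for HET against WT at 48 h, 0 to 1 for 24 against 12 h in WT, 5 to 9 for 48 against 12 h in WT, 6 to 10 for 48 against 24 h in WT, 0 to 5 for 24 against 12 h in HET, 0 to 7 for 48 against 12 h in HET and 0 to 5 for 48 against 24 h in HET.

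Over all genes, the count for HET against WT at 48 h was 0, and 2120 with the block, 663 with the block without HET 48 h replicate 3 and 276 after quantile normalization. It was 1 and 17 (block) at 12 h and 3 and 553 (block) for the average. For 24 against 12 h in WT it was 622, 1621 with the block and 1132 with the removed directions as covariates. In HET it was 2442 for 48 against 12 h (5301 block, 1596 quantile, 0 compared groups only) and 429 for 48 against 24 h (2888 block, 841 directions, 0 compared groups only). Leaving out 1 culture gave 0 to 931 genes for HET against WT at 48 h, 0 to 1119 for 24 against 12 h in WT, 1141 to 3970 for the same in HET, 2236 to 5401 for 48 against 24 h in WT, 0 to 4886 for 48 against 12 h in HET and 0 to 2560 for 48 against 24 h in HET. Because 2 directions were removed, each fit assumes more independent residuals than exist. Depth is unknown, and 3 cultures a group limit the precision.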
